A study of Arabidopsis thaliana with 26 samples.

Results

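In Arabidopsis thaliana, 90 probe sets, each a set of short array probes for a transcript, were higher in the cold in 4 plant lines and lower in the compost-grown group coded 24f than in the group coded 00f. They were chosen by these same measured values. The level used throughout is log2(intensity + 16), averaged over the arrays of a group. A probe set was taken where cold minus control was 1.5 or more in each of the lines sf6, sf3, sf2 and wild type (wt), and where 24f minus 00f was -1 or less. Of the 22746 probe sets that are not array controls, 220 met the first condition (0.967%), 890 met the second (3.91%) and 95 met both. A named set of 15 genes, among them the cold-protection gene COR15B and the flavonoid gene UGT78D2, was then left out, which removed 5 probe sets. Of the 90 members, 50 carried 1 gene name, 2 carried several and 38 carried none in the platform annotation, and these last are given by probe set identifier. The same rule on cold without the lower level in 24f gave 118 other probe sets, which are set beside the members below.

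RNA came from all aerial tissue of plants at growth stage 1.14 and was hybridised to Affymetrix ATH1 arrays, with 2 arrays for each of 13 groups and 18 pooled plants behind each array. The lines sf6, sf3 and sf2 came from EMS mutagenesis, a chemical treatment that alters single bases, and the series title ties them to the sensitive-to-freezing mutants sfr6, sfr3 and sfr2. These lines and wt were grown on agar with 0.5x MS medium at 21 °C, 100% humidity and continuous light, with col-0 as their labelled ecotype. They were sampled after 24 h at 4 °C in continuous light (cold) or untreated (control). In the drought groups, sf6 and wt aerial tissue was cut off and dried in a laminar airflow for 2 h at 20 to 22 °C, and the control was intact, so cutting and drying cannot be told apart. Compost with Intercept, an insecticide, held the plants of the groups 00f, 03f and 24f, which were kept at 4 °C in a day of 9 h light and 15 h dark, with humidity at 70%. What these codes mean and which genotype and ecotype were used is not stated in the labels. They differ from the agar plants in medium, day length and humidity, and levels across the 2 regimes are set side by side without a test.

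Plants that meet low but non-freezing temperatures switch on several programmes over hours to days. One of them makes protective proteins under the CBF transcription factors. Others alter the circadian clock and light signalling, hold more sugar and starch, and raise the machinery that assembles ribosomes. SFR6 is known as a subunit of the Mediator complex that many cold-regulated genes need. The transcripts of the 3 mutated genes were not analysed here, so the genotype labels were not checked against them.

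The values that chose the members are a description only. The median difference of cold from control over the 90 members was 2.11 in sf6, 1.97 in sf3, 2.01 in sf2 and 2.12 in wt, on the log2 scale. The median intensity of the members was 406 in sf6 cold, 402 in sf3 cold, 379 in sf2 cold and 408 in wt cold, against 62.5 in sf6 control, 74.4 in sf3 control, 59.5 in sf2 control and 64.5 in wt control. Over the compost groups it was 187 in 00f, 124 in 03f and 48.6 in 24f. The median of 24f minus 00f was -1.44, with a range of -4.80 to -1.03, and 15 members stood at -2 or less. The one-gene members just inside the limit of -1 stood at -1.04 (AT3G55940, AT1G80130 and SAT32), and AT1G67360 (-0.97), the clock gene GI (-0.97) and AT2G22080 (-0.95) lay just outside it. At the limit of 1.5 for the cold, AT3G13230 (1.51), AT1G48570 (1.52) and AT4G33980 (1.52) lay inside, and AT5G14520 (1.49), AT3G15460 (1.47) and AT5G62440 (1.47) outside.

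In 82 of 90 members, both 00f arrays lay below both wt cold arrays, with a median difference of -1.04, and in 86 both lay above both wt control arrays, with a median difference of 1.14. In 24f, 52 members lay below both wt control arrays, 22 above and 16 overlapped them. All of these arrays served the rule, and the shares over all probe sets were not counted, so nothing is read from these counts. The measured markers of the aerial tissue, the light-harvesting proteins LHCB4.1 and LHCB4.2 and the Calvin cycle kinase PRK (3 of 6 listed), were bright on every array, and their summed intensity was 6443 and 5755 in 00f, 4428 and 4350 in 03f and 6509 and 8204 in 24f. The markers of root and hypocotyl that could be measured, PYK10 and BBE28 (2 of 5), summed to 45.1 and 30.0 in 00f, 58.1 and 39.1 in 03f and 195.6 and 158.3 in 24f, and no measured marker was at 0. On the agar arrays this sum lay between 825 and 1710. The part of these tissue markers in the lower member levels of 24f was not tested, and fewer cells of a type and less RNA per cell cannot be told apart in such bulk samples.

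**Figure D1:**
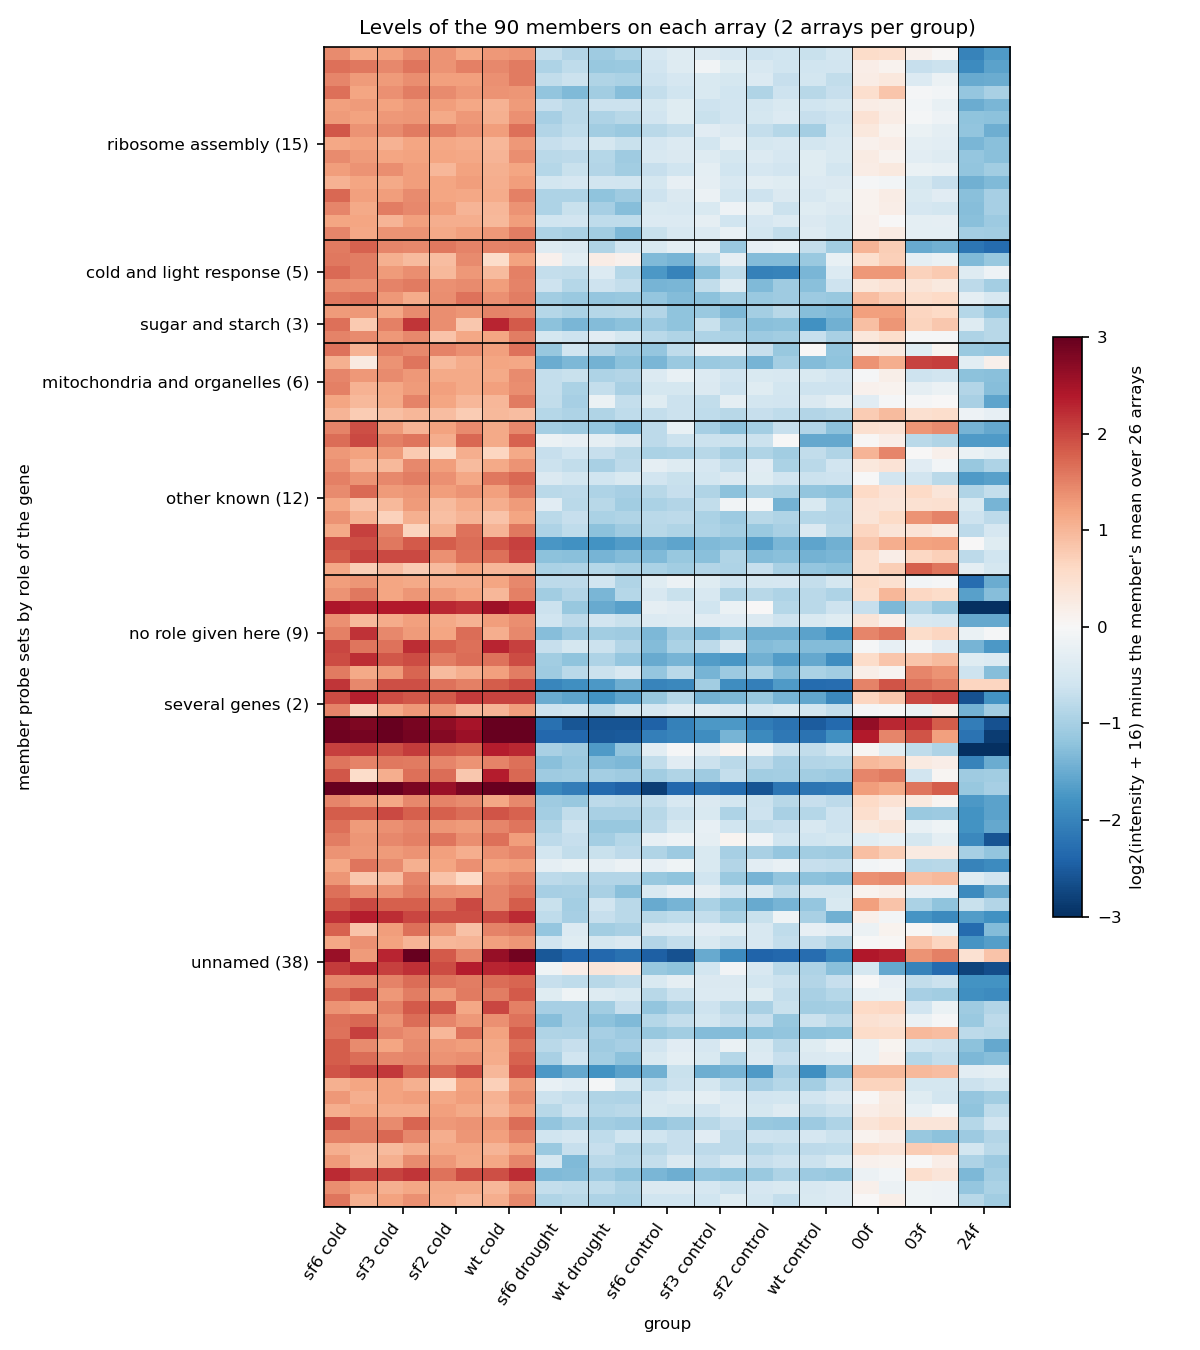
Level of each of the 90 members (rows, ordered by the role of the gene) on each of the 26 arrays (columns, 2 per group), as log2(intensity + 16) minus the member's mean over the 26 arrays, with red above and blue below that mean. Cold columns are red in every member and control and drought columns are blue in nearly all, which the choice of members fixed for cold and control, and most members run from pale red in 00f to blue in 24f.

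In wt plants dried for 2 h, more members fell than rose, and among named roles the genes of ribosome assembly held 7 of the falls. The fit across 17059 probe sets (limma, Benjamini-Hochberg adjusted p under 0.05) called 7 of the 90 members higher and 20 lower in wt drought than in wt control. In that comparison 4.83% of all probe sets tested were called higher and 4.96% lower. Of the 118 cold-raised probe sets that were not that much lower in 24f, 21 were called higher and 2 lower. The median change of the members was -0.11 and that of the 118 was 0.20, against -0.03 for all probe sets tested. Drought is compared here with the same control arrays that the rule on cold used. That choice favours members with low control values, and so favours rises in drought, not falls. The summed markers of root and hypocotyl were 1272 and 1266 in sf6 drought and 1013 and 936 in wt drought, against 1409 and 1570.4 in sf6 control and 1710 and 1647 in wt control, and their part in the result was not tested.

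The count of calls in wt depended on single arrays. Without wt control replicate 1 it was 8, without wt control replicate 2 it was 11, and without either wt drought array it was 6. Only 262113_at and AT3G14200 were called in all of these fits, and 13 of the 27 were called in none. Without the pair of arrays whose titles end in repeat1 (wt control replicate 1 and sf6 drought replicate 2) 3 members were called higher and 3 lower.

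In sf6, 4 members were called higher and 7 lower in drought by the same test, with 2.13% of all probe sets called higher and 1.78% lower. Of the 118 others, 14 were called higher and 0 lower (limma), with an unadjusted p under 0.05 for 28 higher and 7 lower. Over all 17059 probe sets, 3022 had such a p in either direction. The median change of the members was -0.14, against -0.01 for all probe sets tested. Called in both lines were 252123_at, 254080_at and 252625_at as lower and AT4G33980 and 262113_at as higher. The count in sf6 was 4 without sf6 control replicate 1, 1 without sf6 control replicate 2, 1 without sf6 drought replicate 1 and 3 without sf6 drought replicate 2, and only 262113_at was called in each. Between sf6 and wt in drought, a comparison that uses no array of the rule, limma called 0 of 90 members (0.00586% of all probe sets). The lowest adjusted p was 0.526, and 7 members had an unadjusted p under 0.05 (6 higher, 1 lower). Of all 17059 probe sets tested, 1229 had such a p in either direction.

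The tissue in drought had been cut. ORA47, a transcription factor of the jasmonate wound response, had an intensity of 214 and 274 in sf6 drought and 335 and 308 in wt drought, against 44 and 41.8 in sf6 control and 41 and 46.2 in wt control. It is the only measured gene of the 8 on the list of wound and jasmonate genes. Its part in the member changes was not tested.

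The group 03f was compared with 00f in a fit of the 6 compost arrays. Of the 90 members, 48 were called lower and 10 higher, against 18.8% of all probe sets called lower and 11.5% higher. The 00f arrays also served the rule, which favours members that were high there. Lower calls are therefore partly set by the choice and nothing is read from their count, nor from the p of any single fall in 03f given below, whereas higher calls run against it. Among the 118 others, 56 of the 116 tested were called higher and 14 lower. Those 118 were split from the members by 24f minus 00f, so the 00f arrays served their choice too. Low values in 00f favour both a place among the 118 and a rise in 03f. Nothing is therefore read from the 56 or from its contrast with the members. The median of all probe sets tested was -0.13 in this comparison and 0.01 when arrays were scaled to the same median, and with that scaling 33 members were called lower and 13 higher. Of the 58 calls, 33 held with each of the 4 arrays left out, and the count was 37 without 03f replicate 1.

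Set side by side, the medians of 03f minus 00f and 24f minus 03f were -0.44 and -1.08, the second without a test because it shares the 24f arrays with the rule. Both 24f arrays lay below both 03f arrays in 87 members, and 52 had a difference of -1 or less from 03f, which 4.48% of all probe sets had. The rule chose members that were low in 24f, and no share over all probe sets was counted for the 87. Nothing is therefore read from these 2 counts. From 00f to 03f, 9 members had a difference of -1 or less (1.59% of all probe sets). The larger part of the difference between 24f and 00f lay after 03f in 74 members and before it in 16. The 00f and 24f arrays served the rule, and no share over all probe sets was counted for this split. Nothing is read from it or from the 9 members above.

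**Figure D2:**
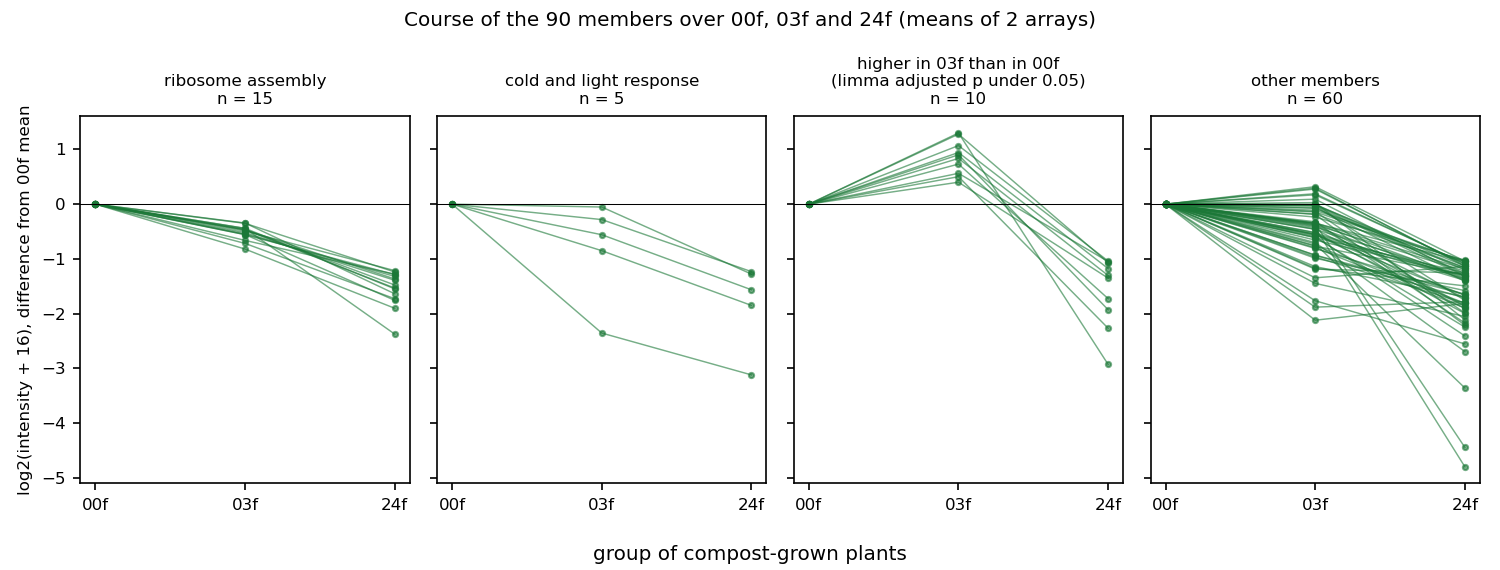
Change of each member over the compost groups 00f, 03f and 24f (x axis), as the difference of its mean log2(intensity + 16) from that of 00f (y axis, 1 line per member, means of 2 arrays), in 4 panels. The 15 genes of ribosome assembly lie below 0 in 03f and lower in 24f, AT3G44450 in the second panel has its larger step by 03f, and the 10 members of the third panel lie above 0 in 03f and below it in 24f.

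Members by the role of their gene are described next. The roles were given after the members were known, so their counts carry no test beyond that of each gene. Ribosome assembly was the largest named group, with 15 of the 50 genes. These proteins act in the nucleolus on precursors of the small and large ribosomal subunits, and most are known from their counterparts in yeast.

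AT1G52930, a Brix-domain protein named BRX1 in yeast, matures the large subunit. Its intensity was 616 and 517 in sf6 cold, 538 and 619 in sf3 cold, 587 and 517 in sf2 cold and 572 and 589 in wt cold. The untreated plants had 151 and 166 in sf6, 159.8 and 151 in sf3, 139 and 140.3 in sf2 and 134 and 146 in wt. Every cold array lay above every control array, and the 4 lines overlapped in the cold. In drought it measured 128 and 113 in sf6 and 97.5 and 108 in wt, below the control arrays of the same line in both. The change in wt drought was -0.39 ± 0.11 (SE), adjusted p = 0.0302 (limma), a call lost with any 1 of the 4 wt arrays left out, with the highest adjusted p without wt drought replicate 1 (adjusted p = 0.215). On compost it was 330.1 and 323 in 00f, 245 and 227 in 03f and 43.4 and 57.5 in 24f, in falling order with no overlap.

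The other 14 were AT3G18600, AT3G23620 (RPF2 in yeast), AT3G22660, AT5G15750, AT1G79150 (NOC3 in yeast), AT3G10530 (UTP7 in yeast), AT4G15770, AT3G06530, RBL, AT3G13230 (PNO1 in yeast), AT4G25730, AT3G58660, AT2G37990 (RRS1 in yeast) and AT1G06720. The median intensity of the 15 genes was 332 in sf6 cold, 353 in sf3 cold, 292 in sf2 cold and 297 in wt cold, against 78.9 in sf6 control, 90.8 in sf3 control, 79.7 in sf2 control and 84.2 in wt control. It was 60.0 in sf6 drought and 49.3 in wt drought, and 148 in 00f, 92.8 in 03f and 44.2 in 24f. The group was thus lower in drought than in control in both lines at the median. Its lower level in 24f than in 00f was set by the rule. The brightest in wt cold was AT4G15770 (NIP7 in yeast, an assembly factor of the large subunit), with 829 and 1018 in wt cold and 273 and 286 in wt control.

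In wt drought 7 of the 15 genes of ribosome assembly fell (limma), where 4.96% of all probe sets tested fell. All 15 had a change below 0, from -0.74 to -0.08. AT1G06720, a GTPase named BMS1 in yeast that acts early on the small subunit, measured 20 and 13.3 in wt drought and 40.3 and 35.5 in wt control, and fell by 0.73 on the log2 scale (limma adjusted p = 0.00276). AT3G58660, with a ribosomal L1-type domain, had 50.1 and 38.3 in wt drought against 86.7 and 81.7 in wt control, a change of -0.74 ± 0.16 (SE), adjusted p = 0.00802 (limma). AT4G25730, an RNA methyltransferase named SPB1 in yeast, had 29.5 and 33.9 in wt drought against 59.1 and 65 in wt control, with a change of -0.71 ± 0.16 (SE), adjusted p = 0.0107 (limma). The drought and control arrays of wt did not overlap for any of these 3.

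Further falls in wt drought were those of AT3G06530 (UTP10 in yeast, -0.55), the DEAD-box RNA helicase AT3G18600 (-0.54) and RBL, a nucleolar protein of the NOC2 family (-0.50). Leaving out 1 array kept between 2 and 5 of the 7 calls: 3 without wt control replicate 1, 5 without wt control replicate 2, 3 without wt drought replicate 1 and 2 without wt drought replicate 2. In each of these fits all 15 genes kept a change below 0. In sf6 drought 1 of the 15 was called lower, where 1.78% of all probe sets tested were. It was AT3G22660 (EBP2 in yeast), with 29.4 and 24.8 in sf6 drought and 46.3 and 51.3 in sf6 control. Its change was -0.59 ± 0.14 (SE), adjusted p = 0.0303 (limma). That call was lost with any 1 of the 4 sf6 control and drought arrays left out, with the highest p without sf6 control replicate 2 (adjusted p = 0.213). All 15 had a change below 0 in sf6 as well, from -0.59 to -0.07, and 14 did without sf6 control replicate 2. The share of all probe sets with a change below 0 was not counted in either line. The 15 genes were read on the same arrays, so they are not replicates of each other.

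Between 00f and 03f the 15 genes of ribosome assembly had changes from -0.82 (AT3G18600) to -0.34 (AT5G15750, IMP3 in yeast, a small-subunit factor). All 15 were called lower, where 18.8% of all probe sets were, but the 00f arrays served the choice of members and nothing is read from this count. With arrays scaled to the same median, 7 of the 15 were called and the median change was -0.35 instead of -0.49. Leaving out 1 array kept 9 calls without 00f replicate 1, 9 without 00f replicate 2, 5 without 03f replicate 1 and 5 without 03f replicate 2. From 00f to 24f, the rule's own contrast, their differences ran from -2.37 to -1.21.

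Other genes of ribosome assembly were listed after the members were known, so the list is no independent evidence. It holds 42 genes, of which 20 are measured and none is a member. In wt drought 7 of the 20 fell and 0 rose (median -0.30), where 4.96% of all probe sets tested fell and 4.83% rose. In sf6 drought 1 fell and 0 rose (median -0.22), against 1.78% and 2.13% of all. In 03f 12 fell and 0 rose (median -0.40), against 18.8% and 11.5% of all and a median of -0.13, all by limma. At an unadjusted p under 0.05 these counts were 10, 7 and 15 lower, and 0 higher in each. Over all 17059 probe sets, 4017, 3022 and 7046 had such a p in these comparisons, in either direction. The 4 with the smallest adjusted p in wt drought were NOP58-2, a core protein of RNA-guided rRNA methylation, with 91 and 91.8 in wt drought and 157 and 148 in wt control (log2 change -0.65, adjusted p = 0.00171), PES, the pescadillo protein of the large subunit (-0.65, adjusted p = 0.0033), the WD40 nucleolar protein YAO (-0.53, adjusted p = 0.00744) and GAR1, of RNA-guided pseudouridylation (-0.63, adjusted p = 0.0146). In the cold, 15 of the 20 were higher by 1 or more than control in wt, with a median of 1.25, against -0.05 for all probe sets tested. The share of all probe sets higher by 1 or more was not counted, so nothing is read from the 15. In 24f, 9 were at -1 or less, as were 3.91% of all probe sets, and the median of the 20 was -0.96.

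**Figure D3:**
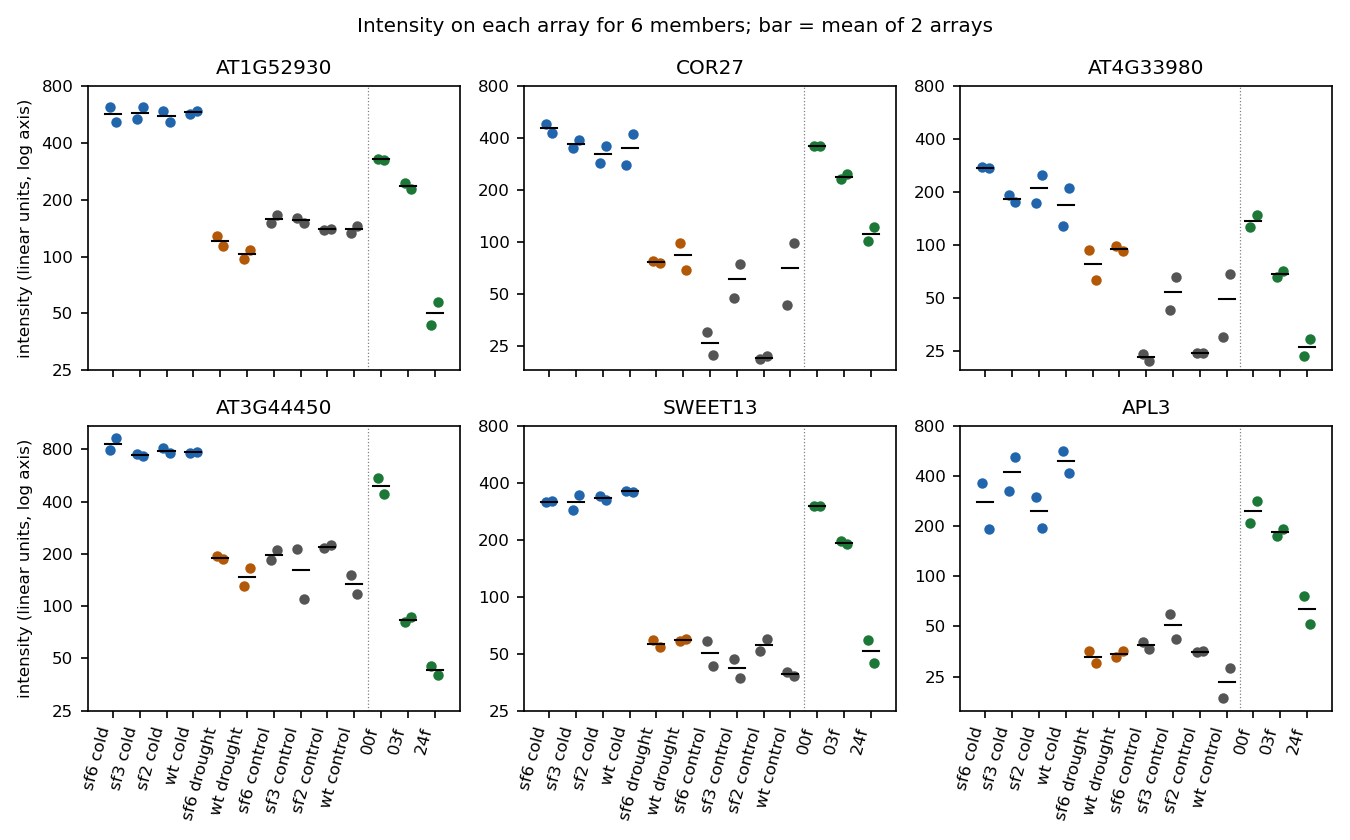
Intensity of 6 members on each array (y axis, linear units on a log axis) by group (x axis), with the mean of the 2 arrays as a bar, cold in blue, drought in orange, control in grey and compost groups in green. AT1G52930 lies at 97.5 and 107.9 in wt drought below its wt control arrays, COR27 and AT4G33980 are spread in wt and sf3 controls, and AT3G44450 is already low in 03f.

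A group of 5 members belongs to the response to cold and light. COR27 (AT5G42900) is a small protein that represses clock genes and is turned on by cold. It had 481 and 428 in sf6 cold, 353 and 388 in sf3 cold, 285 and 359.5 in sf2 cold and 279.6 and 419.8 in wt cold. Its controls read 30.1 and 22.1 in sf6, 47.6 and 74.4 in sf3, 21.2 and 21.8 in sf2 and 43.1 and 99 in wt. The control arrays were spread widely, with wt replicate 2 and sf3 replicate 2 the highest.

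In sf6 drought COR27 measured 77.6 and 75.7, above both sf6 control arrays, a change of 1.14 ± 0.25 (SE), adjusted p = 0.018 (limma), and this call was lost with any 1 of the 4 arrays left out, with the highest adjusted p without sf6 control replicate 2 (adjusted p = 0.168). In wt drought it measured 99.4 and 68.9, overlapping the wt control arrays, with a change of 0.26 (limma adjusted p = 0.587). The difference between the lines in this response was not tested. On compost it was 358 and 362 in 00f, 232 and 247 in 03f and 101 and 122 in 24f, and the change in 03f was -0.56 ± 0.12 (SE), adjusted p = 0.00426 (limma).

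AT4G33980, a close paralog of COR27 with a like role, also had its highest control arrays in wt replicate 2 and sf3 replicate 2. It had 278 and 272 in sf6 cold and 128 and 211 in wt cold, against 23.8 and 21.9 in sf6 control and 29.8 and 68.2 in wt control. It read 191 and 174 in sf3 cold and 172 and 249 in sf2 cold, against 42.5 and 65.8 in sf3 control and 24.3 and 24.1 in sf2 control. Drought gave 93 and 63.3 in sf6 and 98.6 and 91.5 in wt, above all control arrays of wt and of sf6, except that sf6 drought replicate 2 lay below wt control replicate 2. The changes were 1.26 ± 0.25 (SE), adjusted p = 0.00991 in sf6 and 0.84 ± 0.25 (SE), adjusted p = 0.0472 in wt (limma). The call in wt held in 1 of 4 fits with an array left out and was lost with a pseudocount of 64, with no filter on dim probe sets and with just the compared groups fitted. Without wt control replicate 1 the change in wt was 0.40 (adjusted p = 0.463). The call in sf6 was lost without 3 of the 4 arrays, with the highest adjusted p without sf6 drought replicate 1 (adjusted p = 0.142). Its compost arrays were in falling order with no overlap, with 125 and 147 in 00f, 65.8 and 70.5 in 03f and 23.4 and 28.9 in 24f.

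AT3G44450, an inhibitor of the blue-light receptors called cryptochromes, had the largest difference of any one-gene member between 24f and 00f (-3.12). It measured 547 and 445 in 00f, 80.9 and 86.2 in 03f and 45.2 and 40.1 in 24f, and its change in 03f was -2.36 ± 0.13 (SE), adjusted p = 3.09e-07 (limma). In the cold it read 792 and 929.7 in sf6, 751 and 734 in sf3, 813 and 762 in sf2 and 761 and 776 in wt, against 184 and 210.5 in sf6 control, 214 and 111 in sf3 control, 216 and 225 in sf2 control and 152 and 118 in wt control. Drought gave 194 and 187 in sf6 and 130.5 and 165 in wt, overlapping the control arrays in both lines, with changes of -0.04 in sf6 (limma adjusted p = 0.942) and 0.12 in wt (adjusted p = 0.767).

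The other two of this group lay above all agar control arrays in 00f and 03f. AT2G47890, a zinc finger protein of the B-box family that acts in light signalling, rose in sf6 drought to 90.4 and 73.5, against 45.9 and 47.1 in sf6 control, a change of 0.64 ± 0.17 (SE), adjusted p = 0.0377 (limma) that was lost with any 1 of the 4 arrays left out. AT3G55580, an RCC1-repeat protein of cold tolerance, was dim outside the cold, with 154 and 175 in wt cold and 14.5 and 13.8 in wt control. On compost it was 108 and 95.1 in 00f, 78.8 and 82.5 in 03f and 37.4 and 30.8 in 24f, and 24f stayed above the wt control arrays. GI, an evening clock protein and the only measured gene of 17 on the clock list, is no member because its difference in 24f was -0.97. It fell in 03f by 0.90 on the log2 scale (limma adjusted p = 0.000266).

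A set of 3 members moves or stores sugar. SWEET13, an exporter of sucrose, had 316 and 322 in sf6 cold, 289.5 and 346 in sf3 cold, 342 and 325 in sf2 cold and 365 and 358 in wt cold, against 58.4 and 43.1 in sf6 control, 46.8 and 37.1 in sf3 control, 51.5 and 60 in sf2 control and 39.9 and 38.1 in wt control. It rose in wt drought to 58.6 and 60.1, against 39.9 and 38.1 in wt control, a change of 0.45 ± 0.12 (SE), adjusted p = 0.0252 (limma), and the call was lost with any 1 of the 4 arrays left out, with the highest adjusted p without wt drought replicate 2 (adjusted p = 0.134). Its sf6 drought arrays read 58.8 and 54.1, overlapping the sf6 control arrays. On compost it was 303 and 304 in 00f, 197 and 189.9 in 03f and 58.9 and 44.6 in 24f, and the change in 03f was -0.61 ± 0.12 (SE), adjusted p = 0.00371 (limma).

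APL3, a large subunit of ADP-glucose pyrophosphorylase, the enzyme that opens starch synthesis, had the second largest wt cold difference of the one-gene members (3.69). Its arrays read 365 and 192 in sf6 cold, 328 and 521 in sf3 cold, 301 and 196 in sf2 cold and 569 and 419 in wt cold. Both sf6 and both sf2 arrays lay below both wt arrays in the cold, while those of sf3 overlapped wt. The controls read 40.6 and 36.7 in sf6, 59.8 and 42 in sf3, 35 and 35.5 in sf2 and 18.5 and 28.1 in wt. On compost it was 208 and 286 in 00f, 176 and 194 in 03f and 76.5 and 51.7 in 24f. TMT2, a monosaccharide carrier of the vacuole membrane, had 498 and 641 in wt cold and 124 and 98.5 in wt control, and fell in 03f by 0.46 on the log2 scale (limma adjusted p = 0.0104), with 205 and 206 in 03f and 269.6 and 308 in 00f. That call was lost without 00f replicate 2, without either 03f array and with median scaling (adjusted p = 0.0935).

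A further 6 genes act in mitochondria or other organelles, with differences of 24f from 00f between -1.36 and -1.05. NDB2, an external NAD(P)H dehydrogenase that feeds the respiratory chain without pumping protons, was the only one of these 6 called higher in 03f. It measured 357 and 293 in 00f, 581 and 598 in 03f and 101 and 146 in 24f, and its rise in 03f was 0.84 ± 0.16 (SE), adjusted p = 0.0024 (limma). Its 03f arrays lay above every cold array of the agar plants, where wt cold read 315 and 309 and wt control 43.2 and 47.4. PPR596, a pentatricopeptide repeat protein of RNA processing, fell in wt drought to 57.8 and 59.6, against 85.2 and 77.7 in wt control, a change of -0.38 ± 0.11 (SE), adjusted p = 0.0348 (limma) that was lost with any 1 of the 4 arrays left out. It also fell in 03f, by 0.66 on the log2 scale (limma adjusted p = 0.00223), as did AT5G20180, an organelle-type ribosomal protein L36 (-0.35, adjusted p = 0.0422), whose call held in 1 of 4 fits with an array left out and was lost with median scaling and when dim probe sets were kept. The other 3 were not called in drought or in 03f: the AAA-type ATPases AT4G36580 (24f minus 00f -1.36) and AT3G03060 (-1.19) and the ribosome recycling factor AT3G01800 (-1.09).

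The members that rose in 03f, and so ran against the choice of members, numbered 10, of which 5 carry 1 gene name. The 10 were 11.1% of the members, near the 11.5% of all probe sets called higher, so nothing is read from their number. AT2G17280 had 126 and 119 in 00f, 333 and 308 in 03f and 67 and 36.5 in 24f, a rise in 03f of 1.28 ± 0.18 (SE), adjusted p = 0.000358 (limma). AT3G55940, of the phospholipase C family, had 64.8 and 78.5 in 00f, 179.5 and 156 in 03f and 30 and 23.3 in 24f, with 1.07 ± 0.14 (SE), adjusted p = 0.000199 (limma). CCT2, an enzyme that makes CDP-choline, a precursor of the membrane lipid phosphatidylcholine, had 159 and 183 in 00f, 326 and 360.1 in 03f and 70.9 and 62.3 in 24f, with 0.94 ± 0.12 (SE), adjusted p = 0.00016 (limma). For all 3 the 03f arrays lay above those of 00f and 24f with no overlap.

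AT3G14890, a DNA phosphoesterase of strand-break repair, measured 157 and 153 in 00f, 294 and 313 in 03f and 30.9 and 26.9 in 24f, and its rise in 03f was 0.90 ± 0.11 (SE), adjusted p = 0.000138 (limma). The probe set 253879_s_at, listed with 2 genes, rose most, with 365 and 413 in 00f, 954 and 1006 in 03f and 24.1 and 54.3 in 24f and a change of 1.30 ± 0.21 (SE), adjusted p = 0.000839 (limma). The cold agar plants read 936 and 1204 in sf6 and 985 and 981 in wt. The other 4 were the unnamed probe sets 245346_at, 245427_at, 264511_at and 247937_at, with rises of 0.40 to 0.73.

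AT3G14200, a co-chaperone of the DnaJ type, was one of the pair of members whose wt drought call held with each array left out. Its arrays read 38.5 and 33.2 in wt drought, against 6.9 and 6.6 in wt control, a change of 1.19 ± 0.22 (SE), adjusted p = 0.00254 (limma). The wt control arrays lay below those of the other lines, which read 22.3 and 26.2 in sf6, 26.3 and 26.3 in sf3 and 26.1 and 49 in sf2. In sf6 drought it measured 42.5 and 39.5, with a change of 0.50 (limma adjusted p = 0.234), and with a pseudocount of 64 the wt change was 0.50 (adjusted p = 0.0514). It fell in 03f to 21.7 and 19.2, against 51.2 and 59.2 in 00f, and read 4.4 and 4.2 in 24f.

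BETA-VPE, a cysteine protease that processes vacuolar proteins, had 542 and 606 in wt cold and 34.5 and 39.1 in wt control, and read 245 and 306 in 00f, 334 and 336 in 03f and 136 and 102 in 24f. SAT32, a salt tolerance protein, had 578 and 742 in wt cold and 54.5 and 56.4 in wt control, and read 252 and 198 in 00f, 273 and 293 in 03f and 93.2 and 108 in 24f. Both lay above the wt control arrays in 24f. AT1G51610, of the cation efflux family, had its larger step by 03f, with 227 and 313 in 00f, 104 and 116 in 03f and 87.5 and 81.6 in 24f, and fell in 03f by 1.17 on the log2 scale (limma adjusted p = 0.000149). PDF2.1, a plant defensin, was dim in wt control (25.4 and 15.7) and read 98 and 151 in wt cold. The remaining members of known function were AT1G23100 (GroES-like chaperonin family, 24f minus 00f -1.39), AT3G24190 (ABC1-type kinase, -1.38), AT3G09540 (pectate lyase family, -1.32) and AT1G79470 (an enzyme of guanine nucleotide synthesis, -1.31).

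Among the 9 genes given no role here, AT1G80130 had the largest wt cold difference of the one-gene members (4.18), with 892 and 986 in wt cold and 36.4 and 36.6 in wt control. It had the highest mean intensity of the one-gene members in 24f, at 389.6 and 387, with 787 and 723 in 03f and 712 and 935 in 00f. AT5G62210 was at 80.6 and 45.8 in 00f, 69.6 and 56.6 in 03f and 1.4 and 2.4 in 24f, far below the 72.8 and 85 of wt control. It fell in wt drought to 39.1 and 34.8, a change of -0.84 ± 0.21 (SE), adjusted p = 0.0185 (limma), lost with any 1 of the 4 arrays left out.

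AT1G64890 and AT1G53035 rose in wt drought. AT1G64890 measured 78.2 and 64.6 in wt drought and 45.5 and 33.3 in wt control, a change of 0.66 ± 0.14 (SE), adjusted p = 0.00635 (limma) that missed the threshold when wt drought replicate 1 (adjusted p = 0.0934) or the second wt control array (0.0898) was dropped. AT1G53035 measured 56 and 54.2 in wt drought and 32.7 and 26.1 in wt control, with 0.65 ± 0.19 (SE), adjusted p = 0.0424 (limma), a call lost with any 1 array left out. AT1G08580 fell in sf6 drought to 57.1 and 57.9, against 82.4 and 95.4 in sf6 control (-0.51 ± 0.12 (SE), adjusted p = 0.0262, limma), and this call too was lost with any 1 array left out. On compost AT1G08580 read 172 and 162 in 00f, 104 and 107 in 03f and 10.2 and 29.4 in 24f. AT2G23910 read 539.8 and 455 in wt cold against 30.1 and 30.4 in wt control. AT5G47455 read 112 and 159 in 00f, 119 and 112 in 03f and 12.7 and 20.5 in 24f, and AT1G48570 read 222 and 188 in 00f, 115 and 114 in 03f and 47.1 and 46.7 in 24f.

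The 38 unnamed probe sets held the largest differences of all members, both in wt cold (258321_at, 5.45) and in 24f (258321_at, -4.80). In wt drought 2 of the 38 rose and 11 fell, against 4.83% and 4.96% of all probe sets tested, and in sf6 drought 1 rose and 5 fell, against 2.13% and 1.78% (limma). In 03f 4 of the 38 rose, against 11.5% of all probe sets. The probe set 258321_at had 2548 and 2508 in wt cold and 38.8 and 45.5 in wt control, and 1927 and 1472 in 00f, 1452 and 1068 in 03f and 57.4 and 34.9 in 24f. A like pattern was seen in 245306_at, with 3593 and 3486 in wt cold and 69.1 and 95.2 in wt control, and 2038 and 1070.4 in 00f, 1445 and 912 in 03f and 69.9 and 38.9 in 24f. The 24f arrays of both overlapped the wt control arrays. The steepest changes by 03f after AT3G44450 were those of 249741_at (-2.12), 263739_at (-1.88) and 260140_at (-1.77), and 249741_at read 363 and 275 in 00f, 67.5 and 53.8 in 03f and 85.6 and 71.6 in 24f.

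The drought change with the smallest adjusted p belonged to 262113_at. It measured 235 and 299 in sf6 drought and 337 and 333 in wt drought, against 109 and 103 in sf6 control and 129 and 98.6 in wt control. The changes were 1.21 ± 0.17 (SE), adjusted p = 0.000583 in sf6 and 1.45 ± 0.17 (SE), adjusted p = 5.04e-05 in wt (limma), and both calls held with each array left out. In the cold it read 1154 and 1297 in sf6 and 1311 and 1379.5 in wt, and on compost 173 and 78.5 in 00f, 52 and 38.1 in 03f and 23.7 and 27.1 in 24f. In contrast 252123_at fell in both lines, with 163 and 151 in sf6 drought and 91.4 and 138 in wt drought, against 264 and 326 in sf6 control and 192 and 223 in wt control. Its changes were -0.84 ± 0.17 (SE), adjusted p = 0.0102 in sf6 and -0.79 ± 0.17 (SE), adjusted p = 0.00701 in wt (limma). With 1 array left out the call held in 1 of 4 fits in sf6, with the highest p without sf6 control replicate 2 (adjusted p = 0.147), and in 2 of 4 in wt, with the highest p without wt drought replicate 1 (adjusted p = 0.131).

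**Figure D4:**
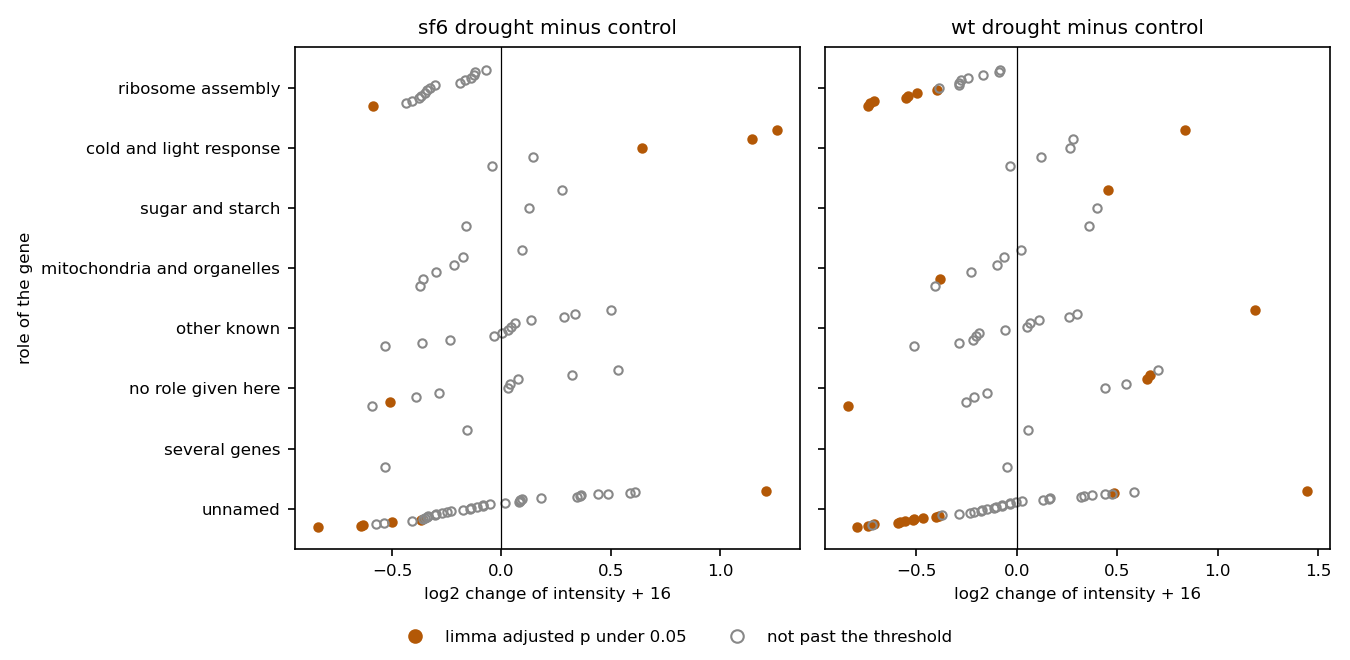
Log2 change of each of the 90 members in drought against control (x axis, log2 of intensity + 16) by the role of the gene (y axis), for sf6 on the left and wt on the right, with filled points where the limma adjusted p was under 0.05. All 15 genes of ribosome assembly lie left of 0 in both panels, and called rises lie among the cold and light genes, the co-chaperone, 262113_at and a few others.

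The mutant lines were compared with wt both for the level in the cold and for the difference of the cold response, that is the mutant's cold minus control less that of wt. No member was called in any of these 6 comparisons (limma). In the cold level, 10 members had an unadjusted p under 0.05 in sf6 (3 higher, 7 lower), 2 in sf3 (0 higher) and 15 in sf2 (0 higher). Of all 17059 probe sets tested, 1168 in sf6, 1002 in sf3 and 1891 in sf2 had such a p, in either direction. The lowest adjusted p was 0.458 for sf6, 0.834 for sf3 and 0.166 for sf2. Of all probe sets, 0.0117% were called in sf6, 0.0234% in sf3 and 0.117% in sf2. For the difference of the cold response, 9 members had an unadjusted p under 0.05 in sf6 (3 higher, 6 lower), 18 in sf3 (0 higher) and 21 in sf2 (3 higher, 18 lower). Over all 17059 probe sets the counts were 1867 in sf6, 1131 in sf3 and 1865 in sf2, in either direction. The lowest adjusted p was 0.0972 for sf6, 0.274 for sf3 and 0.15 for sf2. Here 0.0352% of all probe sets were called in sf6, 0.041% in sf3 and 0.129% in sf2. These comparisons use the cold and control arrays that chose the members. A probe set with a strongly reduced response in a mutant could not be chosen. Nothing is therefore read from the absence of calls or from the unadjusted counts. Without sf6 cold replicate 1, NDB2 and 264400_at were called lower in sf6 cold than in wt cold. Without wt control replicate 1, COR27, AT4G33980 and 249741_at were called higher in the response of sf6.

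The members' cold differences in the 4 lines lay within 0.40 of each other at the median, and the range was over 1 in 4 members: AT4G33980 (1.39), COR27 (1.36), APL3 (1.35) and AT3G14200 (1.25). COR27 had a difference of cold from control of 3.49 in sf6, 2.35 in sf3, 3.16 in sf2 and 2.12 in wt. For AT4G33980 the differences were 2.90 in sf6, 1.52 in sf3, 2.47 in sf2 and 1.54 in wt. APL3 had 2.37 in sf6, 2.70 in sf3, 2.34 in sf2 and 3.69 in wt, the reverse order of sf6 and wt. These values come from the arrays of the rule and carry no test.

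The known cold-protection pathway gives a comparison. Of 20 genes listed for the CBF regulon, 5 are measured (COR15A, COR15B, COR47, LTI30 and the zinc finger factor STZ), and none is a member. All but STZ are on the list of genes left out. Of these 4, COR15B met both conditions of the rule (24f minus 00f -1.67) and was removed by name. COR15A (-0.90), LTI30 (-0.98) and COR47 (0.18) did not reach the limit in 24f. In wt drought 2 of the 5 rose and 0 fell (limma, 5 higher and 0 lower at an unadjusted p under 0.05), COR15B by 1.17 (adjusted p = 0.0403) and STZ by 3.62 (adjusted p = 1.61e-07). In 03f 2 rose, STZ by 2.45 and the dehydrin COR47 by 1.22, and 0 fell (limma, 2 higher and 0 lower at an unadjusted p under 0.05). Of 23 genes listed for flavonoid and anthocyanin synthesis, 9 are measured, 8 of them in the compost fit, where 5 fell in 03f and 0 rose (median -0.73, limma, 7 lower and 0 higher at an unadjusted p under 0.05). Of the 9, CHIL, UF3GT, AT4G14090, UGT78D2, UGT78D3 and AT1G06000 are on the list of genes left out. AT1G06000 (24f minus 00f -3.17) and UGT78D2 (-1.77) met both conditions of the rule, which shares the 00f arrays with these falls. In sf6 drought 3 of the 9 fell and 0 rose (median -0.38, 5 lower and 0 higher at an unadjusted p under 0.05), and in wt drought 1 fell and 0 rose (median -0.12, 2 lower and 0 higher at an unadjusted p under 0.05). Of all probe sets tested, 4.83% were called higher and 4.96% lower in wt drought, and 2.13% higher and 1.78% lower in sf6 drought. In 03f 11.5% were called higher and 18.8% lower. An unadjusted p under 0.05 in either direction was found for 4017 of 17059 probe sets in wt drought, 3022 in sf6 drought and 7046 in 03f. These lists were also written with earlier results known.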

How the data were processed

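The authors deposited 1 linear intensity for each probe set and array. In the deposited intensity values every array has a mean of 100 after trimming 2% at each end, and array medians were 38.2 to 44.4. The software behind them is not given in the sources used here. The platform annotation gave the gene names (13513 of 22810 probe sets with 1 gene, 503 with several, 8794 with none), and 64 control probe sets were left out.

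Levels were log2(intensity + 16), so changes of dim genes are understated. limma 3.58.1 (R 4.3.3) was fitted on groups with an intensity trend, on the 20 agar arrays and on the 6 compost arrays separately, without probe sets whose mean lay below the 25th percentile (17059 tested), after a check on simulated data. Benjamini-Hochberg adjustment covered all of these, with a threshold of 0.05. All 90 members passed that filter. Contrasts of the rule, and 24f minus 03f, got no test. Line comparisons in the cold and 03f minus 00f share arrays with the rule. Nothing says that the 2 arrays of a group are separate cultures, so p-values measure a spread that may be technical, and 2 arrays a group limit the precision.

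The members, roles and lists were chosen with earlier results of these data known. Every member could be named. Values per array were given for the 10 one-gene members with the largest difference in 24f, the 10 with the largest wt cold difference and up to 6 called each way per comparison, partly by group. Of 12 further gene lists (115 genes), 24 genes are measured and 4 lists have none. Alternatives changed the pseudocount, filter, scaling, fit, replicate block and arrays left out. No promoter or protein sequences were used here. Both values of a group are printed in place of an SD.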

Additional observations from a re-analysis of the deposited data

Results flagged for a closer look

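In drought, 3 members moved one way on every array of sf6 and the opposite way on every array of wt, relative to the control of the line. The difference between the lines was not tested. The share of all probe sets that moved in opposite ways like this was not counted, so nothing is read from the number of 3. The unnamed probe set 264511_at read 39 and 33.9 in sf6 drought against 13.8 and 24.8 in sf6 control, and 25.9 and 22.8 in wt drought against 29.8 and 31.7 in wt control, and the response of sf6 less that of wt was 0.80 on the log2 scale. APL3, of starch synthesis, read 35.4 and 30.3 in sf6 drought against 40.6 and 36.7 in sf6 control, and 32.6 and 35.4 in wt drought against 18.5 and 28.1 in wt control, a difference of -0.52. AT3G55580, the RCC1-repeat protein, read 15.6 and 14.1 in sf6 drought against 13.2 and 10.6 in sf6 control, and 13.4 and 13.6 in wt drought against 14.5 and 13.8 in wt control, a difference of 0.18. Intensities near 15 are dim on these arrays, whose medians were 38.2 to 44.4.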

How the results depend on the processing

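The number of members, 90 by the rule, was 169 with a pseudocount of 1, 29 with 64, 202 with a cold limit of 1 and 36 with a limit of 2, and 82 to 94 with 1 array left out. Called members in wt drought, 27, were 13 with a pseudocount of 64, 6 without both repeat1 arrays and 6 to 11 with 1 array left out. In sf6 drought, 11 became 6 with a pseudocount of 64, 18 when the fit held just sf6 drought and sf6 control, 6 without both repeat1 arrays and 1 to 4 with 1 array left out. For 03f minus 00f, 58 became 37 to 49 with 1 array left out. The difference of the cold response of sf6, 0, became 3 without both repeat1 arrays and 0 to 3 with 1 array left out, that of sf2 became 1 with a pseudocount of 1, and the cold level of sf6 became 0 to 2. The cause was not tested. No named result reversed in the alternatives run, and of 580 values under alternatives 435 kept their direction and side of the threshold. Labels number the replicates 1 and 2, and same-numbered arrays of different groups deviated together weakly or not at all (48 pairs, r from -0.206 to 0.197, median -0.0035). Among the compost groups r was 0.179 for 00f with 03f, 0.087 for 00f with 24f and 0.093 for 03f with 24f. These values do not settle whether the numbers pair the samples. With the replicate block, 27 members were called in wt drought, 12 in sf6 drought and 64 in 03f, and 0 in each comparison of lines. The dim members and the 2 arrays a group limit what could be called.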
